A study of Mus musculus with 6 samples.

Results

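The genes described here encode 9 structural proteins of the sarcomere, the contractile unit of striated muscle: titin (Ttn), nebulin (Neb), nebulette (Nebl), the 3 myomesins (Myom1, Myom2, Myom3) and 3 myosin-binding proteins (Mybpc1, Mybpc2, Mybph). They were chosen by symbol, and all 9 of them were found among the 43074 gene symbols of the count table and passed the filter on low counts. The libraries came from C2C12, a wild-type mouse myoblast line grown in serum-rich medium that fuses into multinucleated myotubes when the medium is changed. Non-treated cells were sequenced at day 0, and the day 4 groups had spent 4 days in horse serum medium plus either DMSO or 4-phenylbutyric acid (4-PBA) at 1 mM. 4-PBA is a small molecule that eases protein folding stress and also inhibits histone deacetylases. There were 2 libraries in each of the 3 groups, all from this wild-type line and under the same batch number. Day 0 differs from both day 4 groups in time, medium and added agent together.

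Titin reaches through the sarcomere from the Z-disc to the M-band and acts as a molecular spring and as a scaffold for the thick filament. Nebulin runs along the thin filament of skeletal muscle, and nebulette is its smaller relative, best known from heart, whose gene also makes a LIM-domain form outside muscle. Myomesins crosslink neighbouring thick filaments at the M-band. Myosin-binding protein C, in a slow form (Mybpc1) and a fast form (Mybpc2), binds the thick filament in regular stripes and tunes contraction, and Mybph encodes a shorter relative of it. These proteins are added while myoblasts fuse and assemble myofibrils.

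Total counts ranged from 47908926 to 74697397 per library, and the members together took 0.0255% to 0.0258% of them at day 0 and 0.384% to 0.470% at day 4. The summed level of the 6 myotube markers (Myog, Mymk, Mymx, Myh3, Ckm, Acta1) was 78.0 to 82.6 counts per 1000000 counts of the library (CPM, with library sizes scaled by TMM) at day 0 and 4387 to 4716 CPM at day 4. The 5 myoblast markers, which include Myod1 and Des, summed to 1374 to 1389 CPM at day 0 and 2839 to 2984 CPM at day 4. With DMSO 3 of the 5 rose and Myf5 fell, so as a sum this list does not mark day 0. Markers of 3 other cell types were low: 4 adipocyte genes summed to at most 0.165 CPM, 4 endothelial genes to at most 2.58 CPM and 4 leukocyte genes to at most 6.11 CPM, with Cidec, Lep and Ptprc at no more than 3 counts in any library. Of the 4 cardiomyocyte genes, summing to 8.44 to 11.9 CPM at day 4, Myh6 made up most, and it was lower with 4-PBA than with DMSO (log2 -0.48, edgeR adjusted p = 0.00815). The 4 smooth muscle genes, among them the actin gene Acta2, were not low: they summed to 1024 and 1033 CPM at day 0 and 2345 to 2571 CPM at day 4. Acta2 rose 2.64-fold with DMSO (edgeR adjusted p = 5.28e-29), Cnn1 rose too, and Smtn and Myh11 were not called. The part of these markers in the members' rise was not tested.

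Because the 8 members other than Nebl rose together, the 250 bases before their annotated starts were searched for sequence elements known from muscle genes. RefSeq (GRCm38.p6) gave such a window for 7 of the 9 members, with 1 start each for 6 of them and 4 starts for Nebl. No window was available for Neb or Myom2, which both rose, so the counts below leave them out. The windows of Ttn, Myom1, Myom3 and Mybph, a giant, 2 M-band genes and the most abundant myosin-binding gene per transcript length, are shown 5′ to 3′ with matches on either strand in capitals.
Ttn (chr2:76982548-76982797, minus strand): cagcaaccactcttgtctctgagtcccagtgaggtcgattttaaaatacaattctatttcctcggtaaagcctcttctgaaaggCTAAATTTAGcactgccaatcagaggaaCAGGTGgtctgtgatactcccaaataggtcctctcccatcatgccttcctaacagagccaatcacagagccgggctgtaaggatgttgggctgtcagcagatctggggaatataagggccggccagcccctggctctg
Myom1 (chr17:71019307-71019556, plus strand): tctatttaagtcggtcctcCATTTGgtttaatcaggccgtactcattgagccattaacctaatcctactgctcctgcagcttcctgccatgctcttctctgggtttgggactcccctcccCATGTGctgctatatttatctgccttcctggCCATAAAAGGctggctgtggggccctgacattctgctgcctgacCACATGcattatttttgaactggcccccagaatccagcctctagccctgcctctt
Myom3 (chr4:135759465-135759714, plus strand): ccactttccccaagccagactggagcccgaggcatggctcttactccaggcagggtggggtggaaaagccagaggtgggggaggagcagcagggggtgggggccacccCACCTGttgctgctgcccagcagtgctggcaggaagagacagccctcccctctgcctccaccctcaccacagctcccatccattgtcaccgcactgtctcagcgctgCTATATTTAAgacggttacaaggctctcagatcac
Mybph (chr1:134193198-134193447, plus strand): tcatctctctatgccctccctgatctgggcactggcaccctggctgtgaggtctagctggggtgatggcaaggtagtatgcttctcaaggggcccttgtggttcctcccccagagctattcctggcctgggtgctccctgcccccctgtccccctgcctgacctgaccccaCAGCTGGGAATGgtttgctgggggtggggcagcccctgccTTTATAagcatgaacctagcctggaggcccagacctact
The capitals mark the E-box CANNTG, the core bound by basic helix-loop-helix factors such as MyoD and myogenin, the MEF2 element, the CArG box of serum response factor, the M-CAT element CATTCC and the TATA box TATAAA. An E-box lay in 6 of the 6 windows outside Nebl and in 2 of its 4, against 66.2% of all 32851 windows of this length. A MEF2 element lay in the windows of Ttn and Myom3, 2 of 6, and in none of the Nebl windows, against 2.92% of all windows. A CArG box was present before Myom1 and before 1 start of Nebl (1.47% of all windows), and an M-CAT element before Mybpc2, Mybph and 1 start of Nebl (12.6%). The TATA box was matched before Mybph only, against 12.4% of all windows. These are matches of letters and say nothing of whether a factor was bound.

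Differentiation with DMSO was compared with day 0 to see how these genes change as myotubes form. Of the 9 members, 8 rose and 1, Nebl, was not called by the quasi-likelihood test of edgeR, with calls made at a Benjamini-Hochberg adjusted p under 0.05 over all 17433 tested genes. Over all tested genes 66.3% were called, with 33.8% called higher and 32.6% called lower. Both DMSO libraries lay above both day 0 libraries for the same 8 members and for 42.0% of all tested genes. The median log2 difference of the members was 5.50, that of Myom3, against 0.023 over all tested genes. The loosely known rise of Mybpc2, nearly absent at day 0, does not enter it. Even at the lower bound of its ratio Mybpc2 lay above the median. In bulk RNA, more cells that express a gene and more RNA per cell cannot be told apart.

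**Figure D1:**
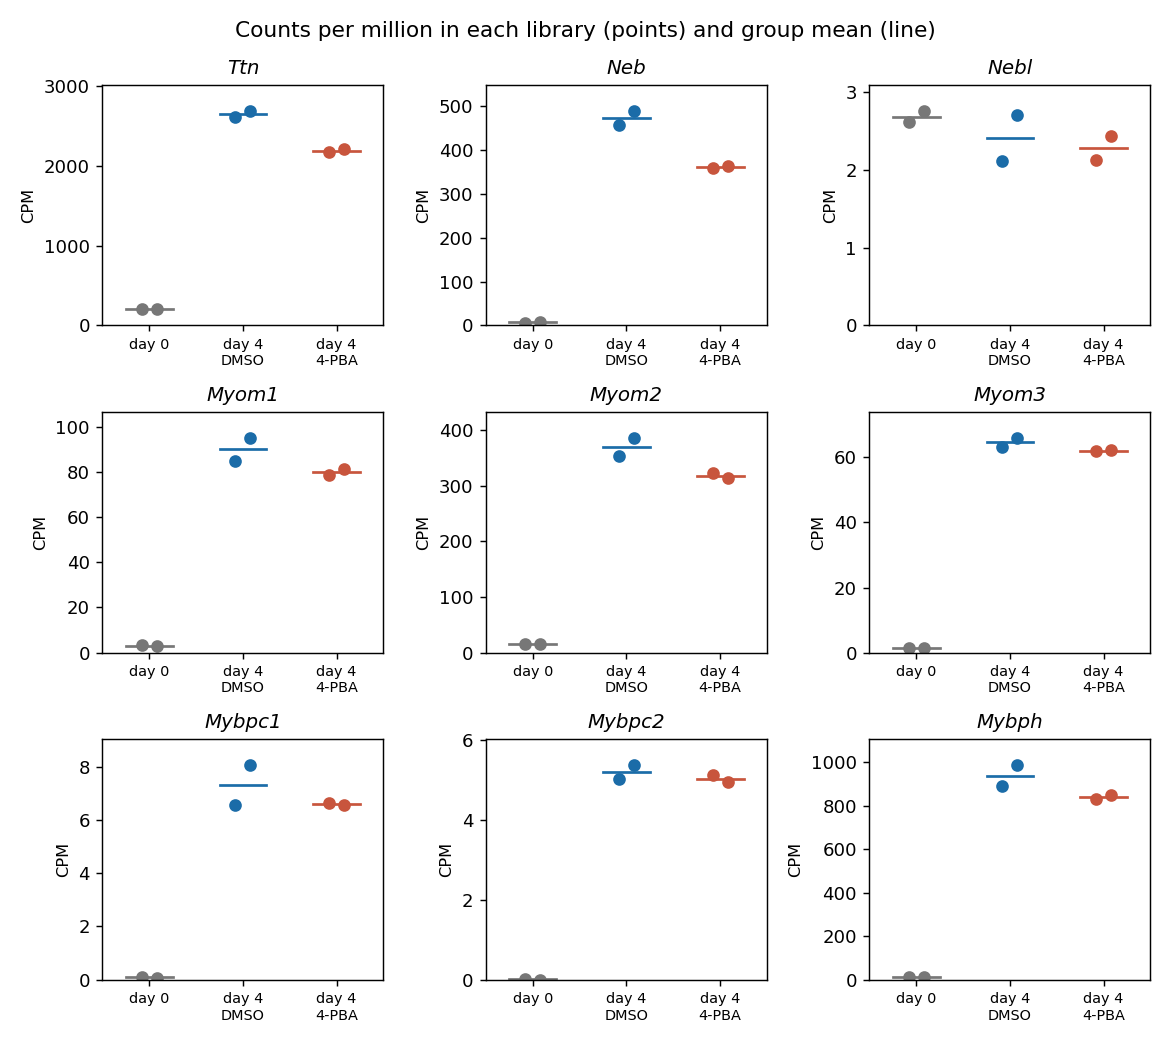
CPM (vertical axis, from 0, with a scale of its own in each panel) of each member in the 2 libraries of each group (points), with the group mean as a line. For 8 members both day 4 groups lie above day 0, and Nebl stays between 2.11 and 2.76 CPM in every library.

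Titin was already abundant by CPM before differentiation. Per kilobase of the longest annotated transcript it stood below Mybph and Myom2 at day 0. Ttn stood at 212 and 210 CPM at day 0, 2614 and 2691 CPM under DMSO, and 2176 and 2207 CPM under 4-PBA. The groups did not overlap, and both 4-PBA libraries lay below both DMSO libraries. Its rise with DMSO was 12.6-fold (log2 3.65, SE 0.030, adjusted p = 1.66e-42), the smallest of the 8 rises, from the highest day 0 level in CPM. By CPM, a quantity that favours long transcripts, Ttn ranked 869 of 17433 genes at day 0 and 20 with DMSO.

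Nebulin started lower and rose further. Neb stood at 6.48 and 7.32 CPM at day 0, 456 and 489 CPM under DMSO, and 359 and 364 CPM under 4-PBA. Here too the 3 groups were apart in every library. With DMSO Neb rose 67.8-fold (log2 6.08, SE 0.049, adjusted p = 6.32e-37). Per kilobase of the longest annotated transcript, the ratio of Ttn to Neb was therefore 6.90 and 6.05 at day 0 and 1.21 and 1.16 with DMSO.

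Nebulette did not follow. Nebl stood at 2.61 and 2.76 CPM at day 0, 2.11 and 2.70 CPM under DMSO, and 2.13 and 2.43 CPM under 4-PBA. The DMSO libraries overlapped those of day 0, and the log2 difference was -0.16 (95% interval -0.54 to 0.22, adjusted p = 0.463). It was 0.0026 without DMSO replicate 1. Neb made up 47.1% and 48.8% of the summed Neb and Nebl level per kilobase at day 0 and 98.7% and 98.5% with DMSO. The day 0 share depended on the length used, with Neb at 26.0% and 27.3% by coding length and 58.7% and 60.3% by the union of all annotated exons. With DMSO it was 96.3% or more by any of the 3 lengths. With 127 to 200 counts per library, Nebl was measured less precisely than the abundant members. The table holds 1 value per symbol, so the forms of Nebl, like the splice forms of Ttn and Neb, were summed.

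The 3 M-band genes rose to different levels. Myom2, which encodes the M-protein of fast fibres, stood at 15.0 and 15.5 CPM at day 0, 354 and 386 CPM under DMSO, and 322 and 313 CPM under 4-PBA. Myom1, which encodes myomesin itself, stood at 3.23 and 2.92 CPM, 84.8 and 95.0 CPM, and 78.4 and 81.2 CPM in the same order. Myom3, the myomesin of intermediate fibres, stood at 1.44 and 1.41 CPM, 63.3 and 66.0 CPM, and 62.0 and 62.2 CPM. In all 3 genes both day 4 groups were far above day 0, and both 4-PBA libraries were below both DMSO libraries, by least in Myom3.

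With DMSO the rise was 24.2-fold for Myom2 (log2 4.60, SE 0.045, adjusted p = 1.20e-35), 29.5-fold for Myom1 (log2 4.88, SE 0.072, adjusted p = 4.83e-33) and 45.4-fold for Myom3 (log2 5.50, SE 0.079, adjusted p = 4.91e-35). Per kilobase, Myom2 held 78.0% and 79.9% of the M-band total at day 0 and 72.6% and 72.7% with DMSO. The share of Myom3 was 6.83% and 6.61% at day 0 and 11.8% and 11.3% with DMSO. Myom1 kept a share of 13.5% to 16.5% over the 6 libraries. By the exon union the share of Myom3 was 10.7% and 10.3% at day 0 and 17.9% and 17.2% with DMSO.

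Among the myosin-binding genes, Mybph was by far the most abundant. It stood at 13.2 and 12.7 CPM at day 0, 890 and 988 CPM under DMSO, and 830 and 848 CPM under 4-PBA, and its 3 groups did not overlap. The rise with DMSO was 72.6-fold (log2 6.18, SE 0.050, adjusted p = 1.01e-25). Adora1, on the opposite strand, overlaps 49.9% of the annotated Mybph exon bases in GENCODE M21. Adora1 itself stood at no more than 2.67 CPM in any library.

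The slow and fast forms of myosin-binding protein C were nearly silent at day 0. Mybpc1 had 6 and 5 counts there, or 0.123 and 0.0712 CPM, against 6.56 and 8.06 CPM under DMSO, and 6.64 and 6.57 CPM under 4-PBA. Its summed counts gave a ratio of 79.6 for DMSO over day 0, with a 95% counting interval of 44.3 to 160 (fitted log2 6.27, SE 0.26, adjusted p = 1.61e-21). Mybpc2 had 1 and 0 counts at day 0, against 5.02 and 5.37 CPM under DMSO, and 5.11 and 4.94 CPM under 4-PBA.

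For Mybpc2 the ratio of summed counts was 619 with an interval of 111 to 24473, so the size of its rise is only loosely known (adjusted p = 2.36e-20). Its fitted log2 difference was 8.97, which became 7.85 without day 0 replicate 2 and 11.43 without day 0 replicate 1, where no count was left at day 0. At day 4 the slow form held 54.5% to 58.0% of the summed Mybpc1 and Mybpc2 level per kilobase. Mybph held 99.1% to 99.2% of the level of all 3 myosin-binding genes at day 4.

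**Figure D2:**
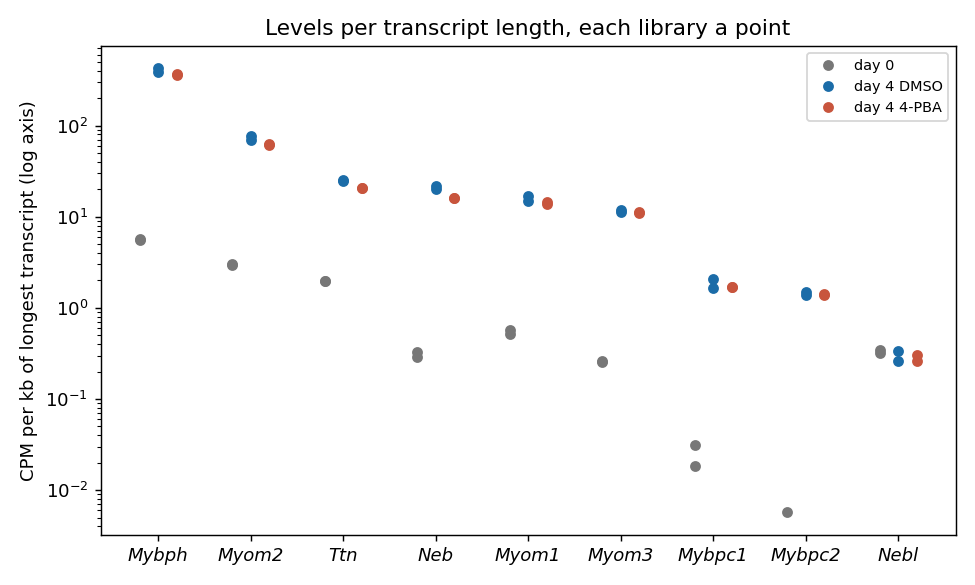
Level of each member in CPM per kilobase of its longest annotated transcript (log axis), with each library as a point and the groups side by side. Members are ordered by their DMSO mean, from Mybph at 405 to Nebl at 0.297, and the point for Mybpc2 in day 0 replicate 2 is missing because its count was 0.

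Levels of different genes were compared per kilobase of the longest annotated transcript, which is 106824 bases for Ttn, 22489 for Neb and 2320 for Mybph. With DMSO the order of mean levels was Mybph (405 CPM per kb), Myom2 (72.9), Ttn (24.8), Neb (21.0), Myom1 (15.9), Myom3 (11.6), Mybpc1 (1.86), Mybpc2 (1.44) and Nebl (0.297). Both libraries of each gene lay above both libraries of the next. The same order held with 4-PBA, from 362 CPM per kb for Mybph to 0.282 for Nebl. At day 0 the order was Mybph (5.58 CPM per kb), Myom2 (2.95 and 3.06 in the 2 libraries), Ttn (1.98), Myom1 (0.544), Nebl, Neb, Myom3 (0.256), Mybpc1 (0.0248) and Mybpc2. There Nebl and Neb, at 0.333 and 0.307 CPM per kb, overlapped between libraries. Their day 0 order turned with the length: by coding length Nebl (0.884 CPM per kb) lay above Neb (0.322) in both libraries, and by the exon union Neb (0.260) lay above Nebl (0.176). Also at day 0, Nebl passed Myom1 by coding length (0.884 against 0.615), and Ttn passed Myom2 by the exon union (1.81 against 1.72). With DMSO and the exon union in place of the longest transcript, Myom3 (10.7 CPM per kb) passed Myom1 (8.59), and Mybpc1 and Mybpc2 overlapped in the DMSO libraries.

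The second question was whether the level reached at day 4 differed with 4-PBA. Against DMSO, 5 of the 9 members fell with 4-PBA, and none rose: Ttn, Neb, Myom1, Myom2 and Mybph. Over all tested genes 4.90% were called, 2.13% higher and 2.78% lower. The members' median log2 difference was -0.16, with 9 of 9 values below 0, against a median of 0.0021 and 49.4% below 0 over all tested genes. All 9 members stood higher in DMSO replicate 2 than in DMSO replicate 1, so that library lowered the 9 values together. Without DMSO replicate 2, Nebl (0.11), Mybpc1 (0.010) and Mybpc2 (0.0015) lay above 0, and the other members lay nearer 0. Both 4-PBA libraries lay below both DMSO libraries for Ttn, Neb, Myom1, Myom2, Myom3 and Mybph, 6 members, as they did for 22.5% of all tested genes.

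**Figure D3:**
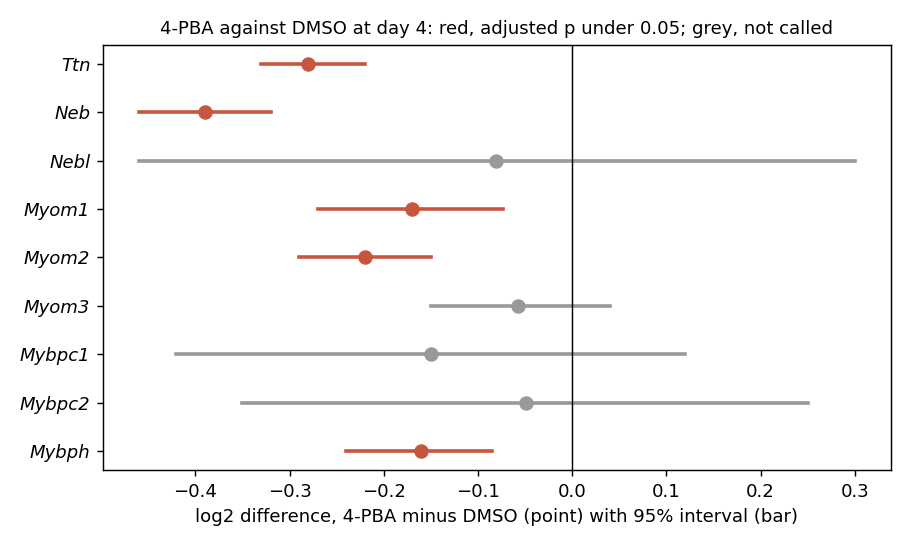
Log2 difference between 4-PBA and DMSO at day 4 for each member (point) with its 95% interval (bar), in red where the adjusted p was under 0.05. Neb lies farthest below 0 at -0.39, and the intervals of Nebl, Myom3, Mybpc1 and Mybpc2 include 0.

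By point estimate in the main fit, the giants fell most among the members. This order was not tested, and the 95% interval of Myom2 (-0.29 to -0.15) overlaps that of Ttn. Neb with 4-PBA was at 76.5% of its DMSO level (361 ± 3.25 against 472 ± 23.4 CPM, SD, n = 2), a log2 difference of -0.39 (SE 0.035, edgeR adjusted p = 1.94e-08). Ttn was at 82.6% (2191 ± 21.6 against 2653 ± 54.0 CPM), a log2 difference of -0.28 (SE 0.026, adjusted p = 1.28e-08). Their 95% intervals, -0.46 to -0.32 for Neb and -0.33 to -0.22 for Ttn, overlap only at their ends. The ratio of Ttn to Neb per kilobase was 1.28 in both 4-PBA libraries, above 1.21 and 1.16 with DMSO. This shift in the ratio was not tested.

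In the M-band, Myom2 fell to 85.7% of its DMSO level (317 ± 6.47 against 370 ± 23.0 CPM, log2 -0.22, SE 0.035, adjusted p = 0.000123). Myom1 fell to 88.8% (79.8 ± 1.95 against 89.9 ± 7.19 CPM, log2 -0.17, SE 0.049, adjusted p = 0.0316). The size of its fall depended on 1 DMSO library: without DMSO replicate 2 it was -0.086 with an adjusted p of 0.438. Myom1 was also not called without either 4-PBA replicate (log2 -0.15 and -0.20, adjusted p = 0.327 and 0.128), with the DESeq2 Wald test (-0.17, adjusted p = 0.0901) or with the length and GC trend removed (-0.17, adjusted p = 0.0515). Myl12a, which overlaps 1.98% of the Myom1 exon bases on the opposite strand, was higher with 4-PBA (log2 0.10, adjusted p = 0.0443). Myom3 was not called (62.1 ± 0.139 against 64.6 ± 1.92 CPM, log2 -0.057, 95% interval -0.15 to 0.040, adjusted p = 0.621). Its share of the M-band level per kilobase was 12.6% and 12.8% with 4-PBA, against 11.8% and 11.3% with DMSO.

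Of the myosin-binding genes, Mybph fell to 89.3% of its DMSO level (839 ± 12.9 against 939 ± 68.7 CPM, log2 -0.16, SE 0.037, adjusted p = 0.0133). Without DMSO replicate 2 its difference was -0.085, with an adjusted p of 0.0675. It was also not called without 4-PBA replicate 1 (log2 -0.15, adjusted p = 0.157) or 2 (-0.18, adjusted p = 0.0645), nor with the DESeq2 Wald test (-0.16, adjusted p = 0.169). Adora1, its opposite-strand neighbour, was not called (2.67 and 2.34 against 1.95 and 2.25 CPM, log2 0.25, adjusted p = 0.670). Mybpc1 (log2 -0.15, 95% interval -0.42 to 0.12, adjusted p = 0.638) and Mybpc2 (log2 -0.049, interval -0.35 to 0.25, adjusted p = 0.925) were not called. At 307 to 598 counts per day 4 library, their intervals take in a fall as large as that of Ttn. Without DMSO replicate 2 their values were 0.010 and 0.0015.

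Nebl was not called either (2.28 ± 0.216 against 2.40 ± 0.416 CPM, log2 -0.081, interval -0.46 to 0.30, adjusted p = 0.899). Its sign turned without DMSO replicate 2 (0.11) and without 4-PBA replicate 1 (0.013). Ttn, Neb and Myom2 were called lower in every alternative and without any 1 library. Over these their log2 differences ranged from -0.30 to -0.22 for Ttn, -0.44 to -0.33 for Neb and -0.29 to -0.16 for Myom2.

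**Figure D4:**
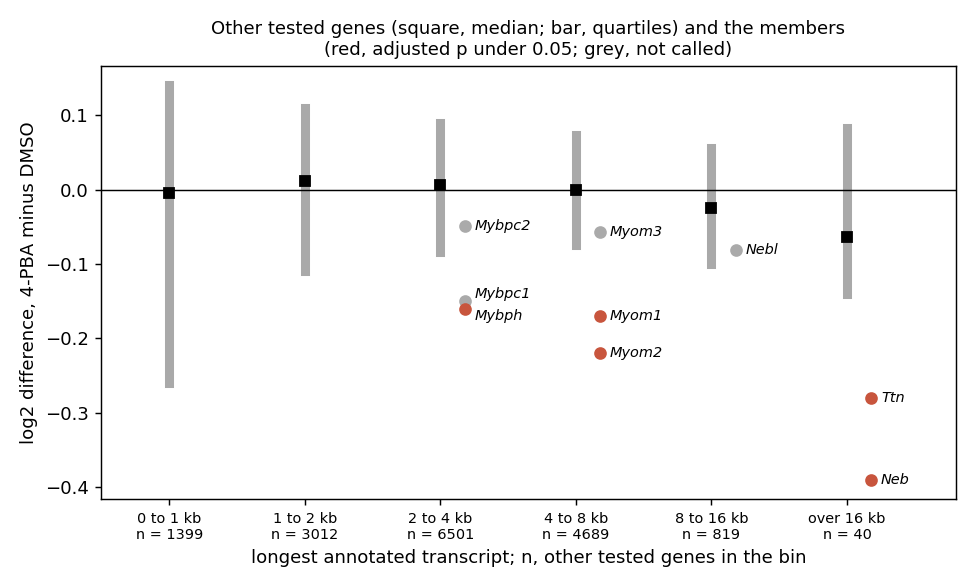
Log2 difference between 4-PBA and DMSO (vertical axis) by length of the longest annotated transcript (horizontal axis, bins), with squares and bars for the median and quartiles of the other tested genes and circles for the members. Ttn at -0.28 and Neb at -0.39 lie below the quartiles of the 40 other genes over 16 kb, whose median was -0.064.

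Ttn and Neb have the longest transcripts of the group, so the difference was set beside that of other long genes. Among the 40 other tested genes with a transcript over 16000 bases the median log2 difference was -0.064, with quartiles of -0.14 and 0.083, and 15.0% were called lower. Among the 6501 genes of 2000 to 4000 bases the median was 0.0057, and 2.14% were called lower. After correction of every library for its dependence on transcript length and GC content, the log2 difference was -0.22 for Ttn (adjusted p = 1.02e-05) and -0.36 for Neb (adjusted p = 3.30e-07). The shorter Mybph (-0.18) and Myom2 (-0.22) stayed called there. With only 40 other tested genes over 16000 bases, the correction at the length of Ttn was set mostly by shorter genes. The same correction took the log2 rise of Ttn with DMSO from 3.65 to 3.09. The part of length in the fall of Ttn is therefore not settled by it.

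General markers of differentiation moved unevenly beside these genes. Of the 6 myotube markers, 3 were lower with 4-PBA: the fusion genes Mymk (log2 -0.17, adjusted p = 0.0134) and Mymx (-0.35, adjusted p = 5.66e-05), and the skeletal actin gene Acta1 (-0.094, adjusted p = 0.0450). Myog (0.0052), Myh3 (0.018) and Ckm (-0.17) were not called. The 4 genes of cycling cells summed to 426 and 360 CPM under DMSO, and 450 and 461 CPM under 4-PBA. None of them was called, at log2 differences of 0.19 for Mki67, 0.25 for Top2a, 0.24 for Ccnb1 and 0.17 for Cdk1. The part of these markers in the members' differences was not tested.

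Cells differentiated with 4-PBA were also compared with day 0, a comparison that shares its day 0 libraries with the one for DMSO. Again 8 members rose and Nebl was not called (log2 -0.24, 95% interval -0.62 to 0.14, adjusted p = 0.266), with 65.6% of all tested genes called and 33.2% called higher. The rise was 10.4-fold for Ttn against 12.6-fold with DMSO, and 51.9-fold for Neb against 67.8-fold. For the M-band genes it was 20.8-fold for Myom2, 26.1-fold for Myom1 and 43.6-fold for Myom3. It was 64.9-fold for Mybph, and the count ratios were 71.3 (39.6 to 143) for Mybpc1 and 597 (107 to 23616) for Mybpc2. The edgeR adjusted p of the called members lay between 1.55e-41 for Ttn and 3.89e-20 for Mybpc2.

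The proteins that these members bind or resemble were taken as 52 partner genes in 4 lists, of which 51 were tested. With DMSO 45 of them rose, 5 fell and 1 was not called, where 33.8% of all tested genes rose and 32.6% fell. Against DMSO, 13 fell with 4-PBA, none rose and 38 were not called, at a median log2 difference of -0.14. Of all tested genes 2.78% fell and 2.13% rose there. Leaving out 1 library could change the number of partner genes called, and it also changed the number called over all tested genes.

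**Figure D5:**
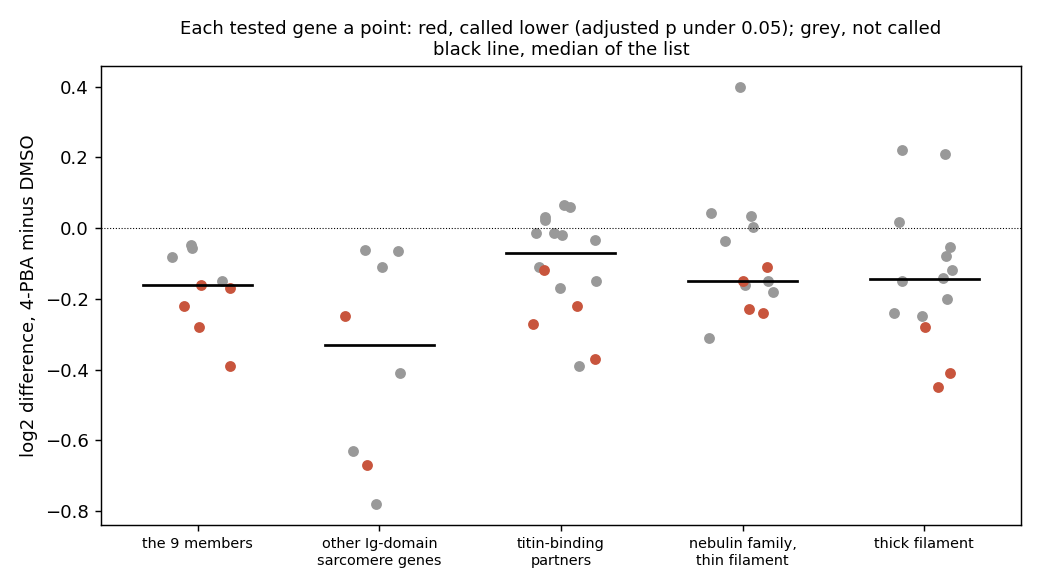
Log2 difference between 4-PBA and DMSO at day 4 (vertical axis) for each tested member and each tested gene of the 4 partner lists (points, red where called lower), with the median of each list as a line. All called genes lie below 0, and the medians range from -0.33 in the other immunoglobulin-domain genes to -0.070 in the titin-binding partners. The median of -0.33 includes Myot (-0.78) and Mybpc3 (-0.63), which had few counts and were not called.

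Among other immunoglobulin-domain sarcomere genes, 2 of 8 tested fell with 4-PBA at a median of -0.33, and Igfn1 was 1 of them. That median includes Myot (-0.78, SE 0.65) and Mybpc3 (-0.63, SE 0.75), with at most 28 and 12 counts in a library, so it is loosely known. Myot was named after its values were seen. Igfn1 stood at 6.06 ± 0.125 CPM with DMSO and 3.81 ± 0.444 CPM with 4-PBA (log2 -0.67, SE 0.15, adjusted p = 0.00478). Obsl1, which encodes a cytoskeletal adaptor (-0.064, adjusted p = 0.382), and the kinase gene Speg (-0.11, adjusted p = 0.0606) were not called. Mybpc3, the cardiac form, and Mybphl, a relative, were both added after their values were seen. Mybpc3 stood at no more than 0.190 CPM, and Mybphl had at most 1 count in a library and was not tested.

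Of 16 titin-binding partners, 4 fell with 4-PBA at a median of -0.070. Ldb3, a PDZ and LIM protein of the Z-disc, changed by -0.27 (SE 0.041, adjusted p = 4.29e-05) from 137 ± 4.59 to 113 ± 3.76 CPM. Actn3, which encodes the fast-fibre alpha-actinin that anchors thin filaments at the Z-disc, changed by -0.12 (SE 0.030, adjusted p = 0.00962). The others called were Trim63 and Trim54, genes of ubiquitin ligase family proteins that bind titin, at -0.37 and -0.22. Tcap (-0.015), which caps titin at the Z-disc, and Ankrd1 (0.032) were not called. These 4 genes, from Trim63 to Ankrd1, were named after their values were seen.

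Of 13 genes of the nebulin family and the thin filament, 4 fell at a median of -0.15: Nrap, Klhl41, Des and Xirp1. Nrap, a nebulin relative known from myofibril assembly, changed by -0.24 (SE 0.049, adjusted p = 0.00170) from 94.1 ± 1.77 to 79.4 ± 5.66 CPM. Klhl41, which encodes a protein that stabilises nebulin, changed by -0.23 (SE 0.046, adjusted p = 0.00311). Lasp1, the member of the nebulin family that is widely expressed outside muscle, was not called with 4-PBA (0.034, adjusted p = 0.653) and had fallen with DMSO (log2 -0.41, SE 0.031, adjusted p = 5.71e-14). Des and Xirp1, at -0.11 and -0.15, were named after their values were seen.

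Of 14 thick-filament genes, 3 fell at a median of -0.14. Myh7, the slow myosin heavy chain, changed by -0.45 (SE 0.059, adjusted p = 6.07e-06) from 47.1 ± 0.687 to 34.5 ± 1.92 CPM. Myh1, a fast heavy chain, changed by -0.28 (SE 0.044, adjusted p = 0.000152). The third was the myosin light chain kinase gene Mylk2 (-0.41), named after its values were seen, which unlike the 8 members that rose was lower at day 4 with DMSO than at day 0 (14.5 ± 0.368 against 19.1 ± 0.465 CPM). The embryonic heavy chain gene Myh3, a marker of myotubes, stood at 2017 ± 95.7 and 2043 ± 41.4 CPM.

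The genes whose pattern was closest to each member were found among tested genes with at least 5 CPM in a group. The measure was the root mean square difference of log2 CPM over the 6 libraries after centring each gene. A prior count of 2 was added before taking logs. Among those closest to Ttn were Klhl31 (0.0702) and the calcium release channel gene Ryr1 (0.0736). For Neb they were Inpp4b (0.0847), Myh7 (0.0950) and the calcium channel gene Cacna1s (0.103). Those of Myom1 began with the fusion gene Mymk (0.0338), those of Myom2 with Tmem182 (0.0527) and those of Mybph with the calsequestrin gene Casq2 (0.0418). For Myom3 they were skeletal actin Acta1 (0.0209) and the fast light chain gene Mylpf (0.0350). The closest to Mybpc1 was Smpx (0.109) and to Mybpc2 Ankrd2 (0.120). The day 0 value of Mybpc2, with 1 and 0 counts, was set mostly by the prior count. Its fitted log2 rise with DMSO was 8.97, against 7.16 for Ankrd2. Nebl, which varied little between groups, was closest to Cbll1 (0.0612).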

How the data were processed

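RNA of C2C12 cells was made into directional libraries, per the labels' protocols, and the authors deposited raw counts per gene symbol, with 1 column per library and nothing pooled or normalised. Per the submitters' processing notes the build was GRCm39. The aligner, counter, annotation and use of strand are not given in the sources used here. Reads of opposite-strand genes, which overlap exons of all members except Nebl, Myom2 and Myom3, may therefore have been counted together.

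The analysis used edgeR 4.0.16 under R 4.3.3 (filterByExpr, TMM, 1 mean per group over 6 libraries, estimateDisp, robust glmQLFit, quasi-likelihood F test, Benjamini-Hochberg over 17433 genes, calls at an adjusted p under 0.05). The SE is the log2 difference divided by the square root of F. Replicates differed by more than sampling noise (chi-square per degree of freedom 3.77 to 6.64). The labels do not say whether they were separate cultures, so p-values cover no spread beyond that between these libraries. The test pooled the spread of a gene over all 6 libraries and drew it towards that of other genes. Residual degrees of freedom were 3, against a median of 30.4 from other genes. Counting intervals are exact and cover counting error only. GENCODE M21 gave lengths, GC content and overlaps, and RefSeq (GRCm38.p6) the promoter windows, so no coordinate of the authors' build is given.

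All 9 members, from each partner list the 2 genes of lowest adjusted p between 4-PBA and DMSO, the partner genes Obsl1, Speg, Mybpc3, Mybphl, Nrap and Lasp1 where they reached 1 CPM, the marker genes and the 3 nearest genes of each member could be named, except for items that are not reported here. Genes that overlap a member are named beside it, and the text marks other genes named outside this rule. Members and lists were chosen with earlier results of these data known. As alternatives served scaling by DESeq2 size factors or by library size alone, 2 other filters, the DESeq2 1.42.0 Wald test, fits of 4 libraries, a replicate block, a length and GC correction, other gene lengths and leaving out each library. The method was tested on simulated counts.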

Additional observations from a re-analysis of the deposited data

How the results depend on the processing

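Calls of the members against day 0 were the same 8 under every alternative run, in both day 4 groups. Between 4-PBA and DMSO, 3 members were called with the DESeq2 Wald test. Over all 17433 tested genes that test called 682, against 855 in the main fit. Leaving out 1 library could lower the number of members called, and the number over all tested genes fell or rose with the library left out. Without DMSO replicate 2 fewer members were called, but more of all tested genes. The cause was not tested. Partner genes called there numbered 20 with no filter beyond 1 count and 6 to 21 when any 1 library was left out. With 1 library left out, the log2 difference of Nebl between DMSO and day 0 ranged from -0.35 to 0.0026, where it turned without DMSO replicate 1. Between 4-PBA and DMSO the ranges were -0.24 to 0.11 for Nebl, -0.29 to 0.010 for Mybpc1 and -0.10 to 0.0015 for Mybpc2, each turning without DMSO replicate 2, and Nebl also without 4-PBA replicate 1 (0.013). A lone library left in a group was assumed to vary like the other groups. By level per kilobase, 7 of 9 members kept their rank with the exon union and 9 with the coding length in each day 4 group, but 4 and 5 at day 0. Same-numbered libraries did not deviate together (correlations of -0.028 to -0.0031 between groups across genes), so the numbers were not taken as pairs. The replicate block gave 5 members and 15 partner genes called between 4-PBA and DMSO, and 8 members in each comparison with day 0. Depth limits Nebl, Mybpc1 and Mybpc2, with at most 598 counts per library.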
